A study of Mus musculus with 20 samples.

Results

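DNA replication origin and fork genes were followed in cultured neural stem cells (NSCs) after Setd8 knockdown and in the dentate gyrus of young and adult mice. The 48 genes were picked by symbol and cover 10 groups, namely the origin recognition complex (ORC, 6 genes), helicase loading (3), the MCM2-7 helicase (6), helicase activation (6), polymerases (8), the sliding clamp and its loader (6), the RPA single-strand binding complex (3), Okazaki fragment maturation (2), nucleotide supply with uracil removal (5) and replication-coupled chromatin assembly (3). All 48 were found among 24062 genes of the bulk RNA-seq and among 27998 of the single-cell RNA-seq (scRNA-seq).

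The mouse NSCs were derived from embryonic cortex and had been passaged many times, so they are a culture model and not hippocampal cells taken from an animal. They carried either a control virus or a lentivirus with an shRNA to Setd8, were selected with puromycin, and were taken 3 days after infection by the labels and 2 days by the column headings of the study's own listing of these values. The values of 4 libraries were used, and the labels of these libraries are in doubt. The listing gives the libraries labelled Ctrl_3, Setd8KD_1 and Setd8KD_2 as controls and the library labelled Setd8KD_3 as the knockdown, and for 169 of 169 listed genes the values were equal. The library labelled Setd8KD_3 alone is therefore called the knockdown below, and the other 3 the controls. The in vivo cells were Nestin-EGFP+ cells sorted from the dentate gyrus at postnatal day 5 (P5), 12 weeks (12w) and 24 weeks (24w), with 1 scRNA-seq and 1 single-cell ATAC-seq (scATAC-seq) library per age.

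Before a cell copies its DNA, ORC binds origins, and Cdc6 and Cdt1 load the MCM2-7 helicase there, while geminin (Gmnn) holds Cdt1 back outside G1. In S phase Cdc45 and the GINS complex join MCM2-7 to form the active helicase, polymerases alpha, delta and epsilon synthesize DNA with the PCNA clamp, and Fen1 and Lig1 join the lagging strand. Setd8 (Kmt5a) writes monomethylation of histone H4 lysine 20, and the protein is destroyed in S phase through PCNA. In the dentate gyrus most NSCs are quiescent, and the neural progenitor cells (NPCs) they give rise to divide.

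Promoter sequences are shown first because E2F factors are the textbook regulators of these genes, and because the members of MCM2-7 recur in both comparisons below. RefSeq promoters (GRCm38.p6, 250 bases before to 50 after the start site) were matched for 40 of the 48 genes, 34 of them with 1 promoter, 4 with 2 and 2 with 3. Gmnn, Mcm4, Gins1, Gins2, Gins4, Prim2, Pole and Rfc2 were not matched. An E2F motif was searched as TTTGGCGC, TTTGCCGC, TTTCGCGC or TTTCCCGC on both strands, and overlapping matches were allowed. It was present in promoters of 15 of the 40 genes (37.5%), of 2.60% of the 27025 genes of the table, and of 4.70% of the 9639 genes that could be matched among those tested in the bulk libraries. The motif CCAAT, on both strands, was present for 60.0% of the 40 genes, 43.2% of the tested genes and 41.1% of the table. The CHR element of cell cycle genes, TTTGAA, was present for 5 of the 40 genes (12.5%) and for 13.6% of the tested genes. For Mcm5 and Mcm6, chosen because their 250 bases before the RefSeq start site hold E2F matches and lie outside the gene in GENCODE vM21 as well, these bases are given, 5′ to 3′ on the strand of the gene and in GRCm38.p6 coordinates, with the E2F matches in capitals.
Mcm5 (chr8:75109259-75109508, plus strand): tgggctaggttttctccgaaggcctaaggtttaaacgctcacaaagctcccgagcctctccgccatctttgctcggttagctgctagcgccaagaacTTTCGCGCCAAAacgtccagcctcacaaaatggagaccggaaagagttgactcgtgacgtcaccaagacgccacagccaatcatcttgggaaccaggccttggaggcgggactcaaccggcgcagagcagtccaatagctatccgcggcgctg
Mcm6 (chr1:128359706-128359955, minus strand): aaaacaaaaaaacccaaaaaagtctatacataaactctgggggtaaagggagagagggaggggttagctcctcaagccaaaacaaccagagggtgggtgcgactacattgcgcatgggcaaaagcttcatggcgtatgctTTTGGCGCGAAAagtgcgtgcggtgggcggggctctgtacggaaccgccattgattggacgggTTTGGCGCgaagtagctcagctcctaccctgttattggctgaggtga
In Mcm5 and in the first run of Mcm6, 2 matches on opposite strands overlap. Relative to the RefSeq start site, the first match began at -153 in Mcm5 and -110 in Mcm6. RefSeq and GENCODE starts can differ, and for Cdc6, Mcm7 and Lig1 the 250 bases before the RefSeq start lie inside the GENCODE gene. Among the 5 MCM2-7 genes with a promoter in the table, Mcm3, Mcm5, Mcm6 and Mcm7 held the motif and Mcm2 did not. A match is a run of letters and no evidence of binding.

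The scATAC-seq peaks, which mark open chromatin, covered the GENCODE start site of 45 of the 48 genes at P5, 46 at 12w and 45 at 24w. Among 21755 protein-coding genes, expressed or not, the shares were 64.6%, 65.8% and 64.0%. All 48 genes had UMIs in NPC-like cells of each age. No share was taken over expressed genes alone, so how far the difference holds among those was not tested. Lig1 and Gins1 had no peak over the annotated start in any library, and Rfc2 had one only at 12w. Within 500 bases of the start, Gins1 had a peak in every library, Rfc2 still only at 12w and Lig1 in none. The GENCODE start of Lig1 is at 13277283 on chromosome 7. A RefSeq promoter of Lig1 lies further on, at 13278576 to 13278875, and was not searched for peaks. The lack of a peak for Lig1 thus holds for the GENCODE start only. Peaks were called on all sorted cells of a library together, so these counts do not separate NSCs from other cells.

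Knockdown of Setd8 asks what the loss of this enzyme does to the transcriptome of NSCs. Levels are in TPM, in which the transcripts of a library add up to 1000000 and which correct for gene length, and are listed for the libraries labelled Ctrl_3, Setd8KD_1 and Setd8KD_2 and then for the knockdown. Setd8 was at 154, 143 and 143 TPM in the controls and at 36.4 TPM in the knockdown, which is 24.8% of the control mean (log2 change -1.98, 95% interval -2.15 to -1.82, limma adjusted p = 0.000502). The targeted gene is thus low in the library labelled Setd8KD_3 and at the control level in the libraries labelled Setd8KD_1 and Setd8KD_2. The 4 libraries held 20040076 to 21493347 reads.

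All 48 replication genes were lower in the knockdown than in each of the 3 controls, whereas 40.1% of the 13233 genes tested lay below all 3. The fall passed an adjusted p under 0.05 (limma on log2(TPM + 1), Benjamini-Hochberg adjustment over the genes tested) for 47 of the 48, against 20% of all genes called lower and 18.9% called higher, and no member was called higher. With a fold of at least 1.5 added, 38 of the 48 were called lower, against 7.76% of all genes. The median log2 change of the 48 was -0.86, a fold of 0.550, and that of all genes tested was 0.00. Summed over the 48 genes, the level was 5174, 5416 and 5380 TPM in the controls and 2973 TPM in the knockdown, or 55.8% of the control mean. With 1 knockdown library, limma took its spread from the controls, so the p-values assume that a second knockdown would vary as the controls did. In bulk RNA, fewer cells in S phase and less RNA per cell cannot be told apart.

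**Figure D1:**
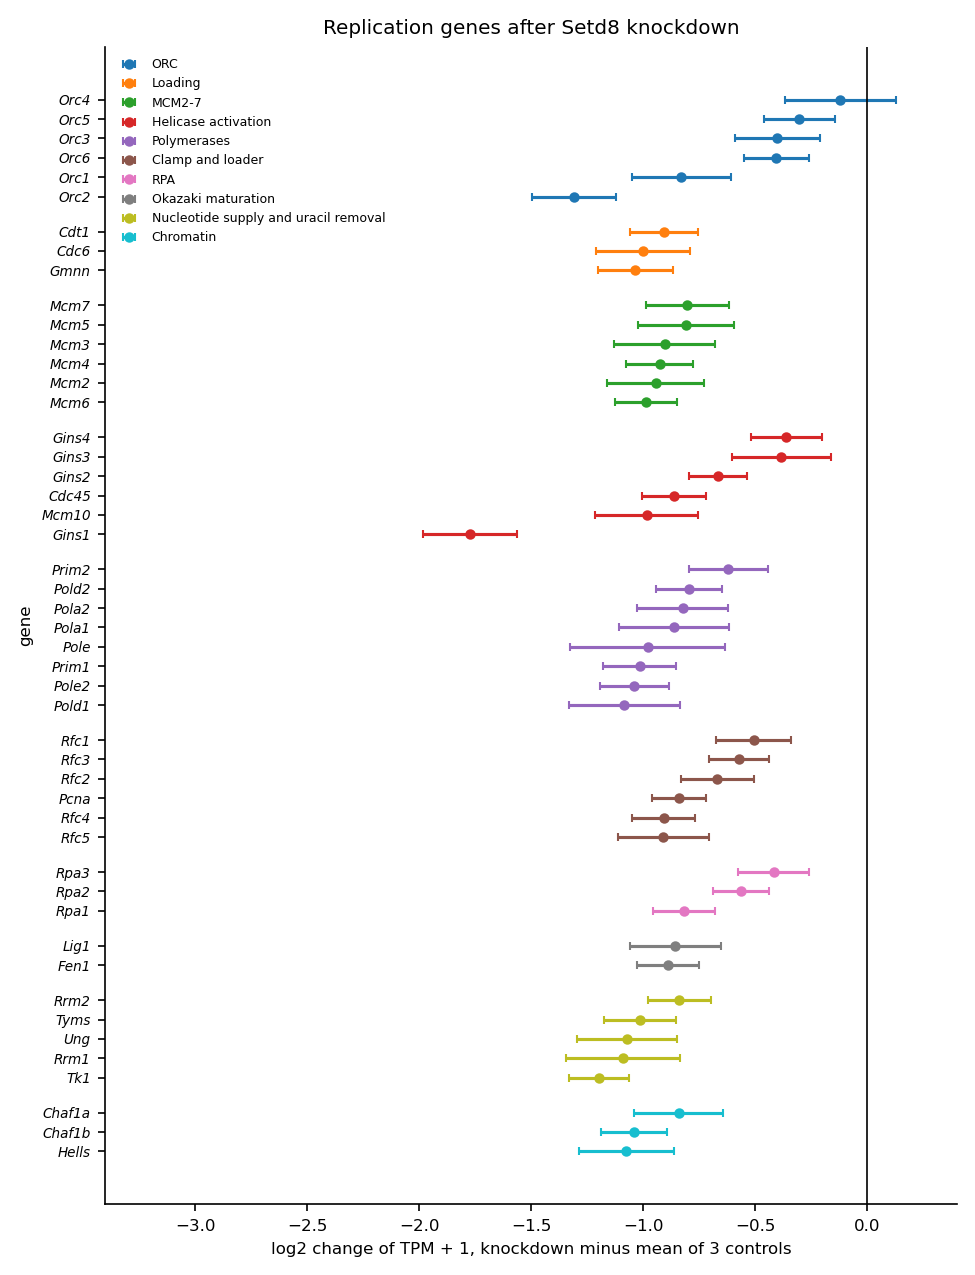
Log2 change of TPM + 1 (x axis) for each of the 48 genes (y axis, sorted within groups, coloured by group), the knockdown library minus the mean of 3 control libraries. Bars are 95% intervals of the limma fit. All points lie below 0, from Gins1 at -1.77 to Orc4 at -0.12, and only the interval of Orc4 reaches 0.

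The ORC genes, whose products mark origins, fell least as a group and differed most among themselves after helicase activation, with a median log2 change of -0.40 and 5 of 6 called. Orc2 was at 65.1, 60.4 and 59.6 TPM in the controls and at 24.3 TPM in the knockdown, a log2 change of -1.31 (95% interval half-width 0.19, adjusted p = 0.000608 by limma). Orc1, the subunit with ATPase activity that comes and goes with the cell cycle, was at 14.7, 15.4 and 15.4 TPM and at 8.09 TPM in the knockdown (log2 change -0.83). Orc4 was at 26.8, 25.1 and 23.1 TPM and at 22.9 TPM in the knockdown, so the knockdown value lay just under the lowest control (log2 change -0.12, half-width 0.25, adjusted p = 0.38 by limma). Orc3, Orc5 and Orc6 fell by 0.40, 0.30 and 0.41 on the log2 scale. The summed level of the 6 genes was 69.3% of the control mean.

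Of the loading factors, Gmnn, the inhibitor of Cdt1, was at 119, 113 and 109 TPM in the controls and 54.8 TPM in the knockdown, or 48.3% of the control mean (log2 change -1.04). Cdt1, the factor that brings MCM2-7 to origins, changed least, with 78.5, 82.6 and 79.5 TPM against 42.3 TPM (log2 change -0.91). Cdc6, the ATPase that works with ORC, was at 20.9, 22.0 and 22.2 TPM against 10.3 TPM, or 47.6% of its control mean, slightly lower than Gmnn as a share. The licensing factors and their inhibitor thus fell by similar amounts, and their intervals overlapped.

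The 6 subunits of MCM2-7, which encircle DNA as the core of the helicase, all fell and did so within a narrow range, from -0.99 for Mcm6 to -0.80 for Mcm7. Mcm6 was at 213, 226 and 221 TPM in the controls and at 111 TPM in the knockdown. Mcm7 was at 171, 184 and 192 TPM and at 104 TPM in the knockdown. The knockdown values were near a halving in both, far below the lowest control. Mcm2 was at 172, 191 and 198 TPM against 96.4 TPM in the knockdown (log2 change -0.94). Mcm3, the most abundant of the 6 in the libraries labelled Setd8KD_1 and Setd8KD_2, was at 205, 232 and 238 TPM against 119 TPM (log2 change -0.91). Mcm4 was at 151, 162 and 153 TPM against 81.3 TPM (log2 change -0.93). For Mcm5, whose levels in the library labelled Ctrl_3 were the lowest of the controls as for the other 5 subunits, the values were 153, 166 and 176 TPM against 93.5 TPM (log2 change -0.81). The SD of the log2 change over the 6 subunits was 0.074, against 0.29 over the 48 genes and 0.47 over all genes tested. It was smaller still for the loading factors (0.066) and Okazaki maturation (0.023), so the narrow range was not particular to MCM2-7. The summed level was 1066, 1160 and 1178 TPM in the controls and 605 TPM in the knockdown.

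Helicase activation held the largest and some of the smallest changes. GINS is a complex of 4 subunits that binds Cdc45 and MCM2-7. Gins1 was at 57.3, 63.0 and 56.5 TPM in the controls and at 16.5 TPM in the knockdown, 28.0% of the control mean (log2 change -1.77, half-width 0.21, adjusted p = 0.000502 by limma). It had the largest fall of the 48 and ranked 32 among the 13233 genes tested, counted from the largest fall. The gene lies on chromosome 2 at 150905400 to 150931280 (GRCm38, plus strand). Gins2 was at 154, 160 and 156 TPM against 98.5 TPM (log2 change -0.67). Gins3 was at 24.1, 22.4 and 21.8 TPM against 17.2 TPM (log2 change -0.38). Gins4 was at 85.9, 92.3 and 89.5 TPM against 69.2 TPM (log2 change -0.36). The 4 subunits of this one complex thus spanned the range from the largest change of the set to among the smallest, and the 95% interval of Gins1 overlapped none of the other 3. Cdc45, which links GINS to MCM2-7, was at 71.9, 73.5 and 73.0 TPM against 39.6 TPM (log2 change -0.86). Mcm10, which is needed to start unwinding, was at 35.9, 40.5 and 40.3 TPM against 19.1 TPM (log2 change -0.98).

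**Figure D2:**
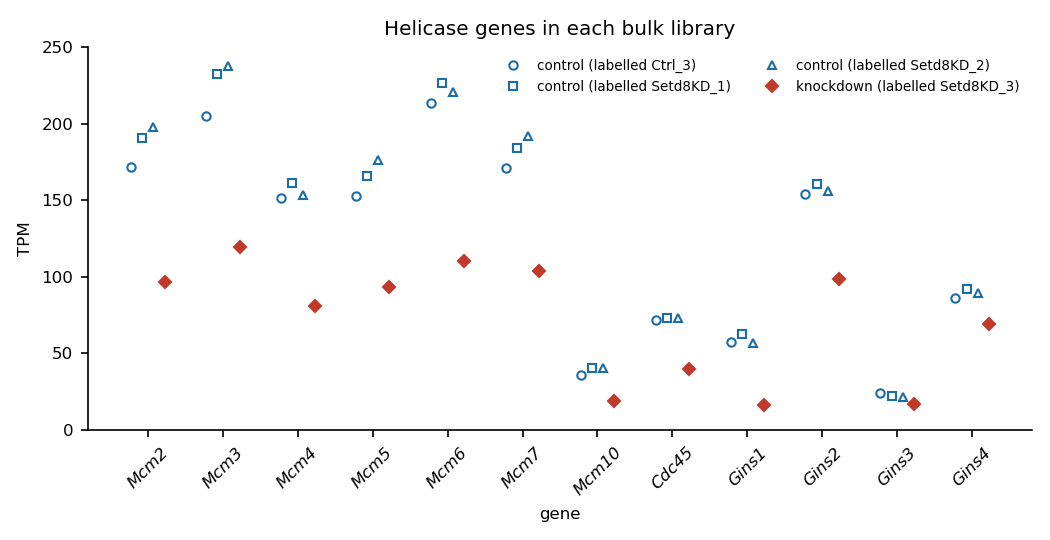
TPM (y axis, linear from 0) of 12 helicase genes (x axis) in each of the 4 bulk libraries. Open blue symbols are the 3 controls and the red diamond is the knockdown, each with its label, and the knockdown is the lowest value for each gene, with the smallest gap for Gins3 (17.2 against 21.8 TPM in the lowest control).

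All 8 polymerase and primase genes fell, with a median log2 change of -0.92. Pold1, the catalytic subunit of polymerase delta, was at 59.1, 66.2 and 69.4 TPM in the controls and at 30.0 TPM in the knockdown (log2 change -1.08). Prim2, the large primase subunit, was at 62.9, 68.6 and 66.7 TPM against 42.6 TPM and changed least (log2 change -0.62). Its partner Prim1, the catalytic primase subunit, had a log2 change of -1.02. Pole, the catalytic subunit of polymerase epsilon, had the widest interval of the 48 genes (log2 change -0.98, half-width 0.35).

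At the fork, Rfc5, a subunit of the clamp loader, was at 99.8, 99.5 and 89.4 TPM in the controls and at 50.6 TPM in the knockdown (log2 change -0.91). Rfc1, the large subunit of the loader, changed least of this group, with 57.0, 60.7 and 60.3 TPM against 41.4 TPM (log2 change -0.51). Pcna, the clamp, had a log2 change of -0.84. Of the RPA genes, Rpa1 changed most, with 204, 215 and 214 TPM against 119 TPM (log2 change -0.82), and Rpa3 least, with 128, 124 and 119 TPM against 92.2 TPM (log2 change -0.42). Each of the 9 genes of these 2 groups was called lower, and 5 of them reached 1.5-fold.

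Fen1, the flap nuclease, was at 125, 128 and 131 TPM in the controls and at 68.6 TPM in the knockdown (log2 change -0.89). Lig1, the ligase that seals Okazaki fragments, was at 104, 114 and 118 TPM against 61.2 TPM (log2 change -0.86). Both thus lay close to the median of the 48.

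Nucleotide supply fell most among the groups by median, at -1.07. Tk1, the S-phase thymidine kinase, was at 170, 174 and 178 TPM in the controls and at 75.3 TPM in the knockdown (log2 change -1.198). Rrm2, the regulated subunit of ribonucleotide reductase, was at 358, 382 and 359 TPM against 204 TPM (log2 change -0.84), the smallest change of the 5. Its partner Rrm1 had a log2 change of -1.09, and the uracil glycosylase gene Ung one of -1.07. Of the chromatin genes, Hells, a remodeller of the SNF2 family, was at 60.8, 58.7 and 53.9 TPM against 26.9 TPM (log2 change -1.08). Chaf1a, the large subunit of the histone chaperone CAF-1, was at 68.3, 73.0 and 76.6 TPM against 40.0 TPM (log2 change -0.84), and Chaf1b had a log2 change of -1.04. All 8 genes of these 2 groups fell by at least 1.5-fold.

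Genes with and without an E2F match in the promoter had nearly the same change. The median log2 change was -0.86 for the 15 genes with a match, with a range of -1.08 to -0.38, and -0.86 for the 25 without, with a range of -1.31 to -0.12. For CCAAT the medians were -0.84 in 24 genes and -0.96 in 16. The E2F search took only the exact motifs given above, close to the start site, so a gene without a match may hold other E2F sites. Gins1, Gmnn, Mcm4 and Pole were among the genes without a matched promoter. The part of E2F factors in the fall was not tested.

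Other genes of the pathway and of the cell cycle fell too. Their lists were set by role, but with earlier results of these data known, so they are no independent check of the fall. The share of all genes called lower, given above beside the 48 genes, is the background for these counts as well. Of 29 further replication genes, 27 were called lower and 1 higher, with a median log2 change of -0.76. The largest changes were those of Dna2, a nuclease and helicase (-1.12), Chtf18, of an alternative clamp loader (-0.99), and Cdca7, a partner of Hells (-0.96). The gene called higher was Pold4, the smallest subunit of polymerase delta, at 61.9, 62.1 and 60.1 TPM in the controls and 95.6 TPM in the knockdown (log2 change 0.63, half-width 0.14, adjusted p = 0.00141 by limma). Chtf8 was not called (log2 change -0.05, adjusted p = 0.481 by limma). Of 14 E2F factors and S-phase cyclin genes, 10 were called lower and none higher, with a median log2 change of -0.48. Dtl, which carries Cdt1 and Setd8 to destruction (-1.21), Ccna2, cyclin A (-1.14), and Fbxo5, an inhibitor of the anaphase-promoting complex (-1.10), changed most, whereas E2f1, E2f3, E2f4 and E2f5 did not pass the test. All 20 mitotic genes were called lower, with a median log2 change of -1.03 and the largest changes for Top2a (-1.52), Bub1 (-1.31) and Hmmr (-1.26). The 48 replication genes therefore fell beside mitotic genes that fell at least as far by median.

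Markers of other cell states moved in part. The 9 NPC markers, 5 of which are genes of dividing cells (Mki67, Top2a, Cenpf, Hmgb2 and Ube2c), summed to 856 to 874 TPM in the controls and 380 TPM in the knockdown. Each of these 5 lay below all 3 controls. Eomes (0.488, 0.682 and 0.440 TPM against 1.34 TPM) and Mfng (11.3, 11.2 and 9.11 TPM against 11.9 TPM) lay above all 3, and Neurog2 and Tac2 were under 1 TPM in all libraries. The 9 markers of dentate NSCs summed to 64.4 to 75.4 TPM and 81.3 TPM, with 1 called higher (Hopx, 44.4, 40.7 and 41.1 TPM against 56.1 TPM) and 5 under 1 TPM in all libraries, while Thrsp, Frzb and Sfrp1 were at 89.5%, 67.4% and 88.7% of the control mean and not called. The 5 general NSC markers summed to 11855 to 12015 TPM in the controls and 10298 TPM in the knockdown, with 3 of 5 called lower. Astrocyte markers summed to 4071 to 4272 TPM and 4591 TPM, with 0 of 9 called. Most of this sum was Igfbp2 (3894, 3914 and 4106 TPM against 4403 TPM). Igfbp2 lay above all 3 controls, as did Slc6a11, Agt and Itih3, whereas Aqp4, S100b and Cxcl14 lay below all 3. The 5 oligodendrocyte markers summed to 1.65 to 1.87 TPM in the controls and 1.74 TPM in the knockdown, with 4 of the 5 under 1 TPM in all libraries. Of 2 lists of immature neuron markers, one (6 genes) summed to 9.91 to 12.2 TPM in the controls and 13.3 TPM in the knockdown, with 0 called, and the other (7 genes) to 12.3 to 14.9 TPM in the controls and 16.3 TPM in the knockdown, with 1 called higher (Snap25). Of 8 oligodendrocyte precursor markers, which summed to 3674 to 3924 TPM in the controls and 3497 TPM in the knockdown, 1 was called lower and 0 higher. Their part in the fall of the replication genes was not tested.

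To ask whether the same genes change with age in dividing cells, UMIs (unique molecular identifiers, each standing for 1 captured RNA molecule) were pooled by cell class and age and given as CPM, which scales each pool to 1000000 UMIs. There is 1 library per age, so no test was made, and all intervals are exact 95% intervals that cover counting error only. After doublet removal the P5 library held 12752 cells (median 4261 UMIs), the 12w library 5271 (2271) and the 24w library 2794 (2178), of which 4.99%, 62.5% and 82.2% were vascular. The libraries also differ in sex, with Xist but no Y-linked UMIs in 92.4% of cells at 12w, Y-linked UMIs without Xist in 29.5% of cells and Xist alone in 0.0358% at 24w, and both kinds of cells at P5. Age, sex and library cannot be told apart. Cells of different libraries shared 88 to 160 barcodes per library.

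Cells were clustered with the 48 genes left out and named from other genes. NPC-like cells, named from markers such as Mki67, Top2a, Cenpf and Neurog2, came to 1254 cells in the P5 library and to 240 and 44 in the adult ones. They consist of 2 clusters, one led by Hist1h2ap, Tcf19, Uhrf1 and Ccne2, which are known from S phase, and one led by Cenpa, Cdc20, Ccnb1 and Ube2c, known from mitosis. The first held 53.5%, 65.8% and 63.6% of the NPC-like cells, in order of age. There were 1364, 372 and 98 NSC-like cells, which came from 3 clusters, the largest of which was led by Fos and Cyr61, genes of the immediate early response. Depth per cell was alike in NPC-like cells, with medians of 7270, 6762 and 7184 UMIs, and was higher at P5 in NSC-like cells, with 4092, 3272 and 3470 UMIs.

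In order of age, NPC-like cells held 3756 (3717 to 3795), 5939 (5824 to 6056) and 5410 (5161 to 5668) CPM of the 48 genes summed. Relative to P5 this was 1.58-fold (1.55 to 1.62) in the 12w library and 1.44-fold (1.37 to 1.51) in the 24w library, so NPC-like cells of both adult libraries held more of these transcripts per UMI. NSC-like cells held 840, 810 and 871 CPM, and both ratios, 0.964 (0.902 to 1.03) and 1.04 (0.9204 to 1.16), had intervals that include 1, so no difference was detectable with these counts. At P5 the level was 4.47 times (4.34 to 4.61) higher in NPC-like than in NSC-like cells, at 12w 7.33 times (6.88 to 7.82) and at 24w 6.21 times (5.50 to 7.04). The naming favours this order, since the markers of NPC-like cells include genes of dividing cells such as Mki67 and Top2a.

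In NPC-like cells the age difference was largest for MCM2-7 among the 10 groups. The 6 genes summed to 565, 1328 and 1229 CPM in order of age, with ratios of 2.35 (2.24 to 2.47) and 2.17 (1.96 to 2.41). The 6 genes accounted for 15.05% of the 48 genes' UMIs at P5 and for 22.4% (12w) and 22.7% (24w) later. Mcm6, with the most UMIs of them at P5, had 1433, 600 and 92 UMIs, or 149, 353 and 281 CPM. Mcm7 had 138, 323 and 342 CPM and Mcm2 90.8, 209 and 210 CPM. Mcm3 had 63.4, 155 and 137 CPM, Mcm4 42.5, 111 and 91.5 CPM, and Mcm5 81.0, 177 and 168 CPM. Each of the 6 subunits thus stood between 1.88 and 2.61 times its P5 level in the adult libraries, with every interval above 1. The other 42 genes together stood at 1.45 (1.41 to 1.48) and 1.31 (1.24 to 1.38) times P5. Cells named as immature neurons (1007, 673 and 90 in order of age) showed a smaller difference, so it was not confined to NPC-like cells. Among them MCM2-7 stood at 1.62 (1.46 to 1.80) times P5 at 12w and at 1.14 (0.895 to 1.44) at 24w. The 48 genes stood there at 1.31 (1.25 to 1.37) and 1.105 (1.003 to 1.215).

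**Figure D3:**
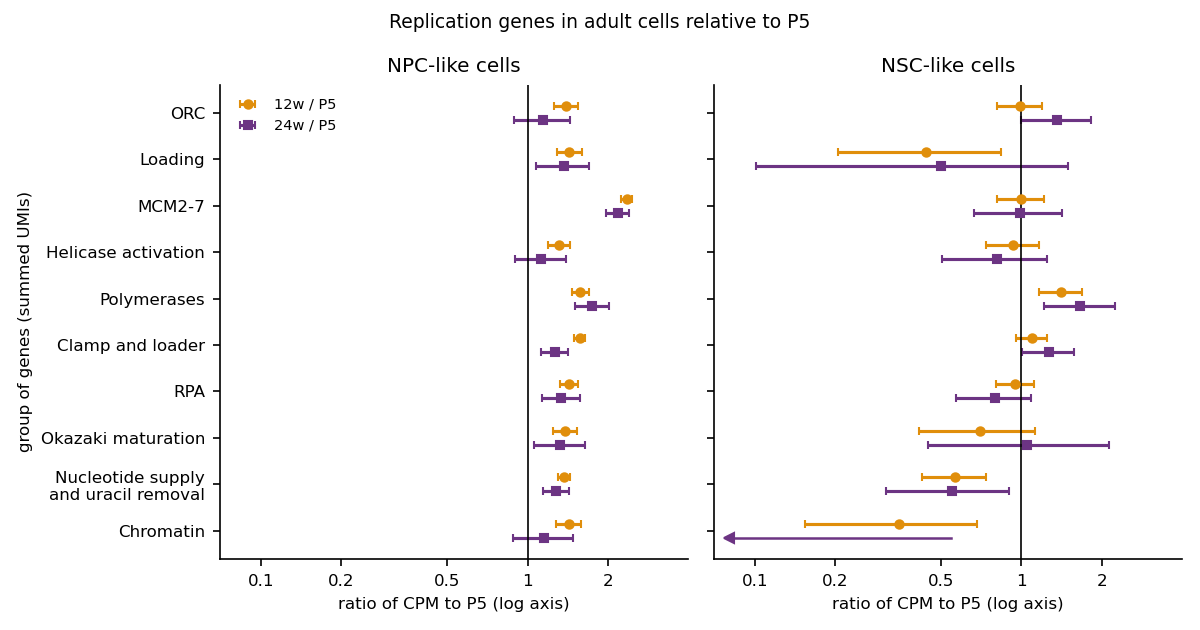
Ratio of the summed CPM of each group of genes to its P5 value (x axis, log scale) at 12w (orange circles) and 24w (purple squares) in NPC-like (left) and NSC-like cells (right). Bars are exact 95% counting intervals, and the arrow marks a group with 0 UMIs at 24w. MCM2-7 stands furthest to the right in NPC-like cells, at 2.35 and 2.17, and at 0.994 and 0.986 in NSC-like cells.

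The polymerase and primase genes followed in NPC-like cells, at 1.58 (1.46 to 1.70) times P5 at 12w and 1.75 (1.501 to 2.02) at 24w. Pold2, with the most UMIs of them, had 98.1, 132.5 and 155.5 CPM, Prim1 had 75.2, 143 and 140 CPM, and Pold1 had 34.3, 55.4 and 79.3 CPM. The clamp and loader genes stood at 1.57 and 1.26 times P5. Pcna had 167, 405 and 311 CPM, a ratio of 2.43 (2.22 to 2.65) and 1.86 (1.51 to 2.28), and the loader subunit Rfc2, with the most UMIs of the group at P5, had 180, 236 and 165 CPM, a ratio of 1.31 (1.18 to 1.46) and 0.915 (0.685 to 1.2). Rfc4 stood at 1.46 (1.28 to 1.66) and 1.34 (0.995 to 1.77), Rfc3 at 1.303 (1.11 to 1.52) and 1.101 (0.749 to 1.57), Rfc5 at 1.23 (1.05 to 1.45) and 1.105 (0.751 to 1.57), and Rfc1 at 1.09 (0.8997 to 1.32) and 0.994 (0.626 to 1.504).

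Origin recognition and helicase activation moved less. ORC stood at 1.39 (1.26 to 1.54) and 1.14 (0.890 to 1.44) times P5, and Orc6, the member with the most UMIs, had 94.7, 110 and 88.4 CPM. Orc3 met the rule of size given below, with 19.5, 42.4 and 30.5 CPM, the last from 10 UMIs. Helicase activation stood at 1.31 (1.19 to 1.44) and 1.12 (0.897 to 1.39) times P5. Within it Cdc45 had 34.3, 58.9 and 67.1 CPM, with ratios of 1.72 (1.36 to 2.16) and 1.96 (1.21 to 3.02), and Gins2 had 67.7, 77.8 and 42.7 CPM. The loading factors differed from each other, since Cdc6 had 19.7, 51.8 and 57.9 CPM, ratios of 2.64 (2.02 to 3.41) and 2.95 (1.73 to 4.73), whereas Gmnn had 106, 105 and 113 CPM, ratios of 0.992 (0.842 to 1.16) and 1.06 (0.743 to 1.47).

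The remaining groups stood between 1.15 and 1.43 times P5 in both adult libraries. For the chromatin genes the 24w interval (0.879 to 1.48) included 1. Rpa2 had 171, 218 and 192 CPM, Rpa1 67.7, 106 and 107 CPM and Rpa3 113, 179 and 171 CPM. Lig1 had 113, 167 and 162 CPM. Rrm2, with the most UMIs of all 48, had 310, 501 and 467 CPM, and Rrm1 had 113, 170 and 174 CPM. Tk1 alone of the 48 was lower than at P5 in both adult libraries, at 136, 109 and 119 CPM, with ratios of 0.801 (0.683 to 0.935) and 0.874 (0.619 to 1.2). Hells had 70.7, 111 and 79.3 CPM.

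A rule of size took a single gene as changed if both adult libraries stood 1.5-fold or more to the same side of P5 and the higher side had 20 UMIs or more. In NPC-like cells 18 of the 48 were higher by this rule, against 10.8% of the 11611 genes that reached 20 UMIs, and 0 were lower, against 8.35%. The 18 were Orc3, Cdc6, the 6 MCM2-7 genes, Cdc45, Pola1, Pola2, Prim1, Pold1, Pcna, Rpa1, Rpa3, Rrm1 and Rrm2. Pola1 and Pola2, subunits of polymerase alpha, had 14.8, 25.9 and 24.4 CPM and 30.4, 56.0 and 54.9 CPM. In all, 39 of the 48 were above P5 at both ages, against 45.2% of all genes. The median log2 ratio of the 48 was 0.57 at 12w and 0.51 at 24w, and that of all genes was 0.13 and 0.16. The ratios at 12w and 24w share the P5 library and are no independent repeats.

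The difference was present in both NPC-like clusters for MCM2-7. In the cluster led by Hist1h2ap and Tcf19 the 6 genes had 858, 1754 and 1641 CPM, ratios of 2.05 (1.94 to 2.16) and 1.91 (1.71 to 2.13). In the cluster led by Cenpa and Cdc20 they had 272, 561 and 417 CPM, ratios of 2.06 (1.82 to 2.32) and 1.53 (1.12 to 2.05). The last value rests on 46 UMIs from 16 cells. For the 48 genes together the ratios were 1.44 (1.40 to 1.47) and 1.31 (1.24 to 1.38) in the first cluster and 1.34 (1.28 to 1.41) and 1.11 (0.980 to 1.25) in the second. Some groups turned in direction within a cluster. In the second, the loading factors stood at 0.931 (0.676 to 1.26) and 0.746 (0.298 to 1.55) times P5, and at 24w helicase activation stood at 0.952 (0.541 to 1.56), the clamp and loader at 0.761 (0.534 to 1.05) and Okazaki maturation at 0.922 (0.439 to 1.71). In the first, chromatin genes stood at 0.943 (0.706 to 1.24) at 24w. The intervals of these turned values all include 1. Pcna had 258, 577 and 441 CPM in the first cluster and 76.3, 95.7 and 54.4 CPM in the second. By the rule of size 14 genes were higher in the first cluster, against 10.2% of all genes, and 9 in the second, against 7.14%, and 0 were lower in either, against 6.51% and 9.34%.

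**Figure D4:**
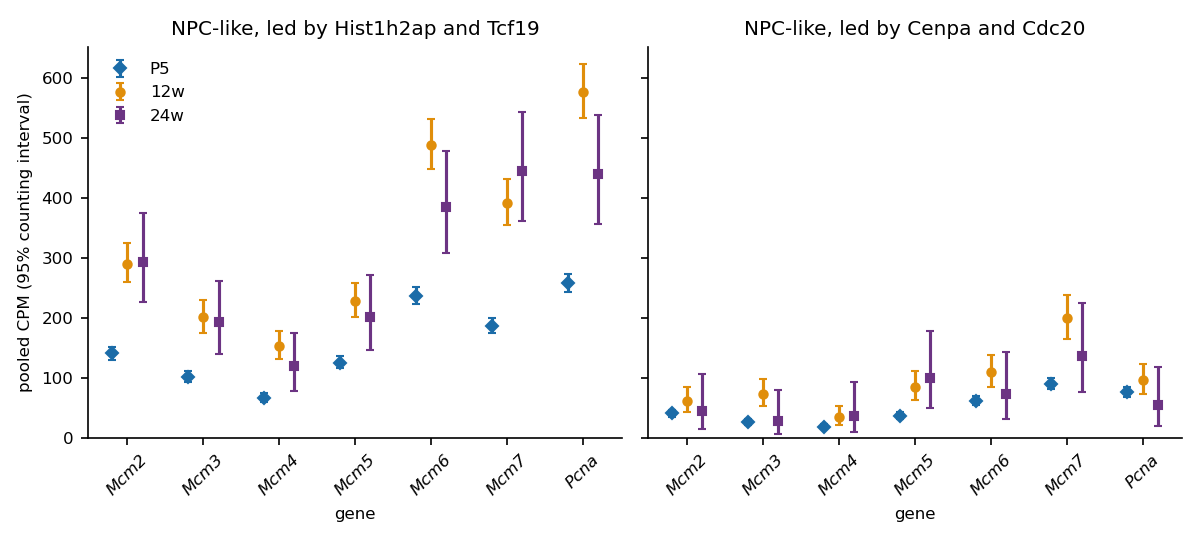
Pooled CPM (y axis, linear from 0) of the 6 MCM2-7 genes and Pcna (x axis) at P5 (blue diamonds), 12w (orange circles) and 24w (purple squares) in the NPC-like cluster led by Hist1h2ap and Tcf19 (left) and in that led by Cenpa and Cdc20 (right). Bars are exact 95% counting intervals. In the left panel all 12w and 24w values lie above P5 (for Mcm7, 187, 392.2 and 446 CPM in order of age), and in the right panel the 24w intervals are wide.

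Other lists were nearer to P5 than the 48 genes in the pool of both NPC-like clusters. The 29 further replication genes stood at 1.14 (1.11 to 1.18) and 1.04 (0.969 to 1.11) times P5, the E2F factors and S-phase cyclins at 1.197 (1.14 to 1.26) and 1.07 (0.945 to 1.199), and the 20 mitotic genes at 0.923 (0.8997 to 0.948) and 0.978 (0.925 to 1.03). Within the clusters the mitotic genes differed from this pooled value. They stood at 0.848 (0.805 to 0.892) and 1.06 (0.965 to 1.17) in the cluster led by Hist1h2ap and Tcf19. In that led by Cenpa and Cdc20 they stood at 1.23 (1.19 to 1.26) and 1.27 (1.18 to 1.35), where the 24w ratio was above the 1.11 of the 48 genes. In this second cluster the further replication genes stood at 1.025 (0.966 to 1.086) and 0.8435 (0.728 to 0.972), so they were below P5 at 24w. Setd8 had 98.4, 59.5 and 73.2 CPM in NPC-like cells, ratios to P5 of 0.605 (0.488 to 0.743) and 0.744 (0.474 to 1.11), so its level was lower than at P5 at 12w and the interval included 1 at 24w. In NSC-like cells Setd8 had 32.2 CPM at P5 from 186 UMIs, 9.87 CPM at 12w from 13 and 5.73 CPM at 24w from 2.

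In NSC-like cells the groups diverged. The cluster led by Fos and Cyr61 held 713 of 1364 of these cells at P5, 253 of 372 at 12w and 71 of 98 at 24w, and the smallest cluster, led by Gdf10 and Gas1, held 129, 5 and 1, so the class was drawn from its clusters in different shares at each age. Nucleotide supply with uracil removal had 83.7, 47.1 and 45.8 CPM, ratios of 0.562 (0.425 to 0.734) and 0.548 (0.311 to 0.899). Chromatin genes had 114, 9 and 0 UMIs, where 3 counts at 24w would be 8.59 CPM, and the loading factors had 100, 10 and 3 UMIs. The polymerase and primase genes were higher, with 82.7, 116 and 138 CPM and ratios of 1.41 (1.16 to 1.69) and 1.66 (1.21 to 2.24). MCM2-7 had 90.1, 89.6 and 88.8 CPM, ratios of 0.994 (0.807 to 1.22) and 0.986 (0.663 to 1.42). Astrocyte-like cells shared part of this pattern. Nucleotide supply stood there at 0.521 and 0.683 times P5 and the chromatin genes at 0.293 and 0.718, with 24w intervals that include 1. The polymerase and primase genes stood there at 1.108 (0.836 to 1.445) and 1.035 (0.577 to 1.718).

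By the rule of size 42 of the 48 genes reached 20 UMIs in NSC-like cells, of which 9 were lower, against 11.3% of 11086 genes, and 3 were higher, against 13.3%. Those lower were Cdt1, Cdc45, Rfc5, Rrm2, Tk1, Ung, Hells, Chaf1a and Chaf1b. Rrm2 had 119, 7 and 3 UMIs, Ung 102, 6 and 3, and Tk1 39, 0 and 0. Those higher were Orc4, Pola2 and Prim1, with Pola2 at 7.61, 19.7 and 28.7 CPM from 44, 26 and 10 UMIs. With doublets kept, 6 were lower and 4 higher. The counts are small, and for none of the 9 did both intervals lie below 1. A lower call needs 20 UMIs only at P5, where the NSC-like pool held 5782591 UMIs, against 1317220 at 12w and 349072 at 24w. A higher call needs 20 UMIs in an adult pool. The numbers of lower and higher genes therefore cannot be set against each other. In the same cells the 20 mitotic genes had 212, 47.8 and 25.8 CPM. The part of dividing cells at P5, or of RNA freed from them, in these levels was not tested.

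Free RNA from broken cells was read from barcodes of 10 to 100 UMIs at 12w and 24w, and its amount from 17 vascular markers. It came to 8.46% and 11.2% of the UMIs of NPC-like cells, and predicted 2.05% and 2.41% of the UMIs of the 48 genes there. In NSC-like cells it came to 9.46% and 10.7% of UMIs and predicted 16.8% and 14.3% of those of the 48 genes. At P5 only selected barcodes were listed, so free RNA could not be read.

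To give the spread over cells at equal depth, each cell was thinned at random to 1000 UMIs, and the UMIs of the 48 genes were summed per cell. All cells had at least 1000 UMIs, so none was left out. In NPC-like cells the share with at least 3 such UMIs was 57.8% (55.0 to 60.6), 72.5% (66.4 to 78.1) and 68.2% (52.4 to 81.4) in order of age, and the median cell had 3, 5 and 4.5. The share with at least 10 was 5.50%, 21.7% and 11.4%. In NSC-like cells the share with at least 3 was 7.77% (6.41 to 9.32), 5.91% (3.74 to 8.82) and 8.16% (3.59 to 15.5), and in astrocyte-like cells 3.86%, 2.58% and 3.33%. The astrocyte-like cells are only set beside the others here, since 1 of their 2 clusters (1110 cells) was led by haemoglobin genes such as Hba-a1 and Hbb-bs. They are no background without dividing cells. In order of age they held 199, 50.8 and 53.3 CPM of the 20 mitotic genes, against 212 CPM in NSC-like cells at P5. Without thinning the shares were 97.7%, 97.9% and 100% in NPC-like cells and 59.6%, 50.8% and 54.1% in NSC-like cells, in which deeper cells pass more easily.

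**Figure D5:**
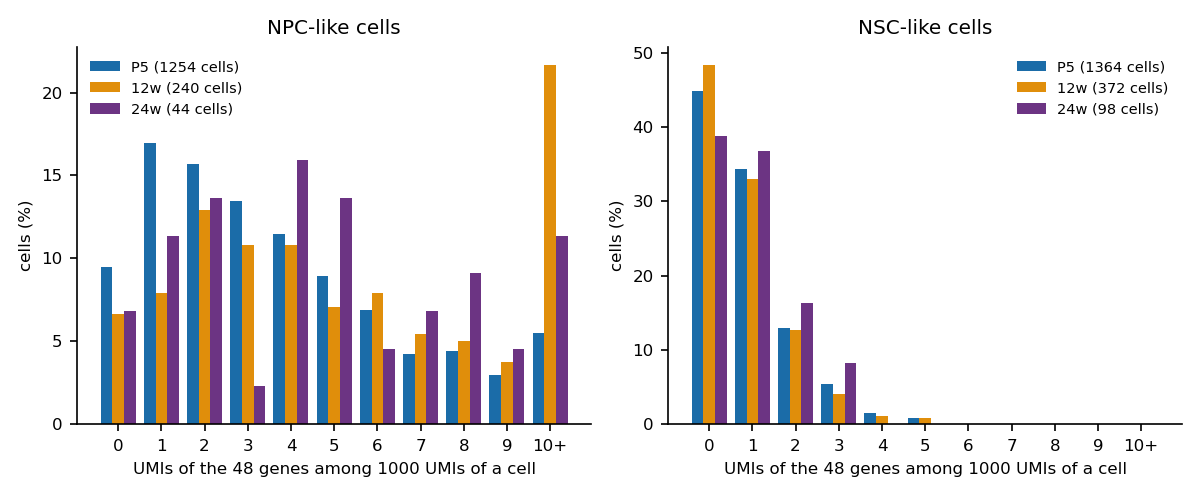
Percentage of cells (y axis) by the number of UMIs of the 48 genes among 1000 UMIs of a cell (x axis, last bin 10 or more) in NPC-like (left) and NSC-like cells (right) at P5 (blue), 12w (orange) and 24w (purple). In order of age, the last bin holds 5.50%, 21.7% and 11.4% of NPC-like cells.

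Oligodendrocyte precursors at P5 gave a second dividing population in the sort. Their cycling cluster, with Top2a and Mki67 among its leading genes and 427 cells, had 2511 CPM (2438 to 2585) of the 48 genes. The largest other precursor cluster, with 1726 cells, had 1096 CPM (1068 to 1126), and NPC-like cells of the same library had 5276 CPM (5211 to 5341) in the cluster led by Hist1h2ap and Tcf19 and 2233 CPM (2190 to 2275) in that led by Cenpa and Cdc20. The cycling precursors thus lay between the NPC-like clusters.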

How the data were processed

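Bulk RNA-seq values are TPM, which the authors computed after aligning reads to mm10 with STAR and deposited per gene. Each library's TPM times gene length gave whole reads for 100% of values between 0.5 and 1000 reads (tolerance 0.05), and these reads served edgeR and DESeq2 as alternatives. Groups followed the study's listing of the same values, since 2 files labelled as controls hold gene symbols and lengths. limma 3.58.1 was fitted to log2(TPM + 1) for genes of at least 1 TPM in at least 1 library, 3 controls against 1 knockdown, and fold changes are on that scale, which understates changes of low genes. Nothing states that libraries came from separate cultures.

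The authors deposited UMI counts per gene and barcode from Cell Ranger 2.2.0 (mm10). Barcodes were kept as cells from 1000 UMIs and 500 genes upward, with mitochondrial UMIs no higher than 10%. Doublets were called with scrublet (scanpy 1.11.5) in 6.81%, 1.50% and 0.107% of cells at P5, 12w and 24w and left out. Seurat 5.3.0 integrated the libraries on 2000 variable genes and clustered them at resolution 0.8, first all cells and then the neural clusters, without the 48 genes. A cluster was named where a marker list had a mean score of at least 0.5 and at least 3 raised markers. Clusters named as immature neurons were compared with P5 as a pool only, and 1 of them was led by markers of another class. Peaks are the authors' Cell Ranger ATAC calls per library. Start sites are from GENCODE vM21 (GRCm38).

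The genes, the lists and the cell markers were chosen with earlier results of these data known. For named genes, values in every library are given for the members of each group with the largest and the smallest change and for MCM2-7, Cdc45 and GINS, and in single cells for each group's member with most UMIs and for genes that met the rule of size. Scripts were tested on simulated data. Alternatives changed the pseudocount, filter, scaling, tool, libraries, cell filters and clustering.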

Additional observations from a re-analysis of the deposited data

Results flagged for a closer look

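The group of nucleotide supply and uracil removal genes (Rrm1, Rrm2, Tyms, Tk1 and Ung) drew attention because its level moved with age in opposite directions in the 2 cell classes. In NPC-like cells it stood at 1.37 times P5 at 12w and 1.28 at 24w, and in NSC-like cells at 0.562 and 0.548, with all 4 counting intervals off 1. Not all members followed this. In NPC-like cells Tk1 stood at 0.801 and 0.874 times P5 and Ung at 0.957 at 24w, and in NSC-like cells the intervals of Rrm1 and Tyms included 1 at both ages. Within single clusters, some intervals included 1 at 24w, at 1.12 (0.863 to 1.43) in the NPC-like cluster led by Cenpa and Cdc20, and at 0.602 (0.296 to 1.1) and 0.566 (0.182 to 1.34) in the larger NSC-like clusters. The 20 mitotic genes were lower in NSC-like cells as well, at 0.225 and 0.121 times P5, and their part in the result was not tested. The lower level was not particular to NSC-like cells. In astrocyte-like cells the group stood at 0.521 (0.344 to 0.758) and 0.683 (0.326 to 1.263) times P5, and the mitotic genes at 0.255 and 0.267. In cells named as immature neurons the group stood at 0.976 (0.825 to 1.151) and 0.774 (0.508 to 1.135). The difference between ages was not tested, since each age has 1 library. No group was searched for single outlying samples, since groups held at most 3 libraries.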

How the results depend on the processing

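No paired analysis was possible because the labelled groups Ctrl and Setd8KD share only number 3 among the libraries with values. The count of 47 replication genes called lower was 44 to 47 with 1 control left out. It was 0 when libraries were grouped by their GEO labels, where all 48 stayed lower with a median log2 change of -0.21, Setd8 changed by -0.76 without passing the test, and 0 genes of all tested were called lower and 0 higher (limma, 114 at an unadjusted p under 0.05). Of all genes, 1038 were called lower and 1196 higher without a filter on low values, 1027 and 890 with a fold of 1.5 added, and 1698 to 2776 lower and 1545 to 2666 higher with 1 control left out, the lowest without the library labelled Setd8KD_1. Without the filter 36 of the 48 were called, and without the library labelled Setd8KD_1 the calls of Gins3, Orc3 and Orc5 were lost; the cause was not tested. edgeR and DESeq2 each called 47. No member changed direction under any alternative for the knockdown.

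In NPC-like cells the ratios of the 48 genes to P5 were 1.46 and 1.36 (12w and 24w) when scaled by the median ratio over genes and 1.69 and 1.58 with predicted free RNA subtracted, which corrects only the 12w and 24w side of the ratio, and those of MCM2-7 were 2.17 at 12w under the first and 2.53 and 2.41 under the second. The clusters were taken apart after the data were seen. They gave 1.44 and 1.31 for the 48 genes and 2.05 and 1.91 for MCM2-7 in that led by Hist1h2ap and Tcf19, and 1.34 and 1.11, and 2.06 and 1.53, in that led by Cenpa and Cdc20, where 9 genes met the rule of size. There the loading factors reversed to 0.931 and 0.746, the clamp and loader to 0.761 at 24w and Okazaki maturation to 0.922 at 24w, with intervals that include 1. Helicase activation there (0.952) and chromatin genes in the other cluster (0.943) also fell below 1 at 24w. In NSC-like cells 6 genes were lower and 4 higher by the rule of size with doublets kept, against 9 and 3. Free RNA subtraction gave 0.886 for the 48 genes and 0.807 for MCM2-7 at 12w. It also took the 12w ratio of the loading factors there from 0.439 to 0.2415 and that of the chromatin genes from 0.347 to 0.204. With at least 2 summed UMIs the shares of NPC-like cells were 73.5%, 85.4% and 81.8% at P5, 12w and 24w and with at least 5, 32.9%, 50.8% and 50%. Those of NSC-like cells were 20.7%, 18.6% and 24.5%, and 0.953%, 0.806% and 0.0%. The 44 NPC-like and 98 NSC-like cells at 24w limit what single genes can show.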
